A study of Mus musculus with 8 samples.

Results

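The interleukin receptor chains through which spleen NK cells receive activating and restraining cytokine signals were described as 1 group of 10 genes: Il2ra, Il2rb, Il2rg, Il15ra, Il12rb1, Il12rb2, Il18r1, Il18rap, Il21r and Il10ra. They were found by matching the RefSeq accession of every non-control probe to these symbols, which gave 14 probes among 55681 on the array and 10 genes among 20284 named ones. The cells were NK cells of mouse spleen, isolated with magnetic beads and then divided by ChAT-eGFP, a green fluorescent reporter for Chat, the gene of the acetylcholine-making enzyme choline acetyltransferase. The groups were 4 ChAT_positive pools with reporter signal and 4 ChAT_negative pools without it, each pool holding cells of 2 to 4 mice, and no treatment, age or strain is given in the sources used here. The reporter reads eGFP and not the enzyme itself, and the labels do not say whether pools shared mice, so every p-value below measures the spread between these pools, which may be technical in part.

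These receptors are built from shared parts. Il2rb and Il2rg, the beta chain and the common gamma chain, form the signalling receptor for both IL-2 and IL-15, and the private alpha chains Il2ra and Il15ra raise its affinity for 1 ligand each. IL-15, presented by the alpha chain on neighbouring cells, keeps NK cells alive. IL-12, read by Il12rb1 with Il12rb2, and IL-18, read by Il18r1 with Il18rap, together drive interferon-gamma release. Il21r joins the common gamma chain, and Il10ra is the ligand-binding chain for IL-10, a cytokine best known for restraining immune responses.

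RNA was measured on 8 one-colour arrays, with 50.2% to 63.2% of the spots of an array reading well above its background and 0 saturated. Values below are log2 signals, that is, log2 of the processed spot intensity less the 75th percentile of the same array. All 14 receptor probes were well above background on all 8 arrays, so no member was lost to the filter on dim probes. Chat averaged 3.75 ± 0.25 in ChAT_positive and 2.65 ± 0.34 in ChAT_negative pools (SD, n = 4 each), with no overlap. All 14 NK markers looked for were well above background on every array. Klrb1c, which encodes the NK1.1 antigen, averaged 1.79 ± 0.16 in ChAT_positive and 3.39 ± 0.17 in ChAT_negative pools (limma adjusted p = 0.0035). Of the 14, 11 were lower in ChAT_positive pools at a limma unadjusted p under 0.05, where 11.1% of all genes were. The median log2 difference of the 14 was -0.57, and 6 of them had groups without overlap, where 15.5% of all genes did. Markers of other cell types were measured too, as the summed linear level of each list. Basophil and mast cell markers summed to 0.891 to 3.79 in ChAT_positive and 9.11 to 43.3 in ChAT_negative pools, and erythroid and platelet markers to 17.1 to 21.6 in ChAT_positive and 26.2 to 44.7 in ChAT_negative pools, 5 of 7 and 5 of 8 of these genes without overlap between groups, where 15.5% of all genes had none. The monocyte list, at 10.8 to 13.8 in ChAT_positive and 14.8 to 18.2 in ChAT_negative pools, had 0 of 6 such genes, and the dendritic cell and ILC2 lists, at 37.0 to 50.1 and 22.9 to 32.4 in ChAT_positive and 34.0 to 49.7 and 22.0 to 26.8 in ChAT_negative pools, had 2 of 8 and 4 of 8. Of the 7 basophil and mast cell genes, 4 were well above background on all 8 arrays. Cd200r3 of that list and Clec9a of the dendritic cell list passed the filter on dim probes through ChAT_negative pools alone. Such a filter favours groups without overlap, so the counts of those lists are no independent evidence of a difference. The arrays of each group shared a slide and a scan that held no array of the other group. Slide effects and group differences cannot be told apart here, and in sorted pools fewer cells of a type and less RNA per cell cannot be told apart either.

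No interleukin receptor gene differed between ChAT_positive and ChAT_negative pools past the test. With limma fitted over 32086 probes and Benjamini-Hochberg adjustment over all of them, 0 of 10 receptor genes had an adjusted p under 0.05, where 3.35% of all 13607 genes did, and 0 of 14 receptor probes did, where 3.09% of all probes did. At an unadjusted p under 0.05, 1 of the 10 genes (Il2rb) and 3 of the 14 probes were lower in ChAT_positive pools and 0 were higher. Over all genes 11.1% were lower and 11.9% higher by that measure, and over all probes 11.9% were lower and 10.7% higher. For 8 of 10 genes the 95% interval of the brightest probe lay within a 2-fold change either way, as it did for 76.6% of all genes. Il18r1 and Il18rap were the exceptions. The dimmer probes of Il12rb1 (-1.45 to -0.048), Il12rb2 (-1.08 to -0.020) and Il18r1 (-1.35 to 0.18) had intervals that reached past a 2-fold lower level too. By the brightest probe of each gene, 8 of 10 receptor genes had the lower mean in ChAT_positive pools, where 46.9% of all genes did, and the median log2 difference was -0.21 for the receptors and 0.026 for all genes. The count of lower means depended on the scaling. Over the 14 probes, 11 had the lower mean in ChAT_positive pools with 75th percentile scaling, where 51.9% of all probes did. The count was 8 when arrays were scaled on their medians, a choice that raised the median of all probes by 0.22. It was 10 with quantile normalization and 11 with normexp background correction. The median log2 difference of the 14 probes was -0.30 with 75th percentile scaling, where that of all probes was -0.017. With median scaling these were -0.086 and 0.20, so the receptors stayed below the median of all probes.

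**Figure D1:**
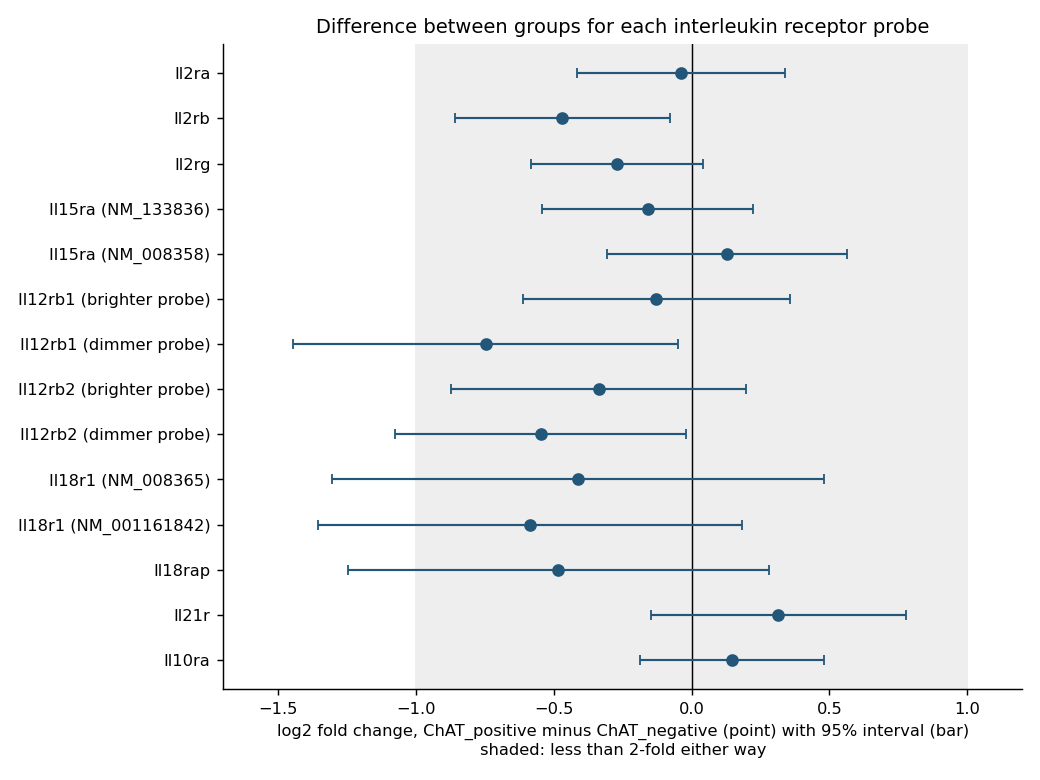
Log2 fold change of each interleukin receptor probe, ChAT_positive minus ChAT_negative (points), with its 95% interval (bars), from limma over 4 pools per group. The shaded band marks less than a 2-fold change either way. 11 of 14 points lie left of 0, and the widest bars are those of Il18r1, Il18rap and the dimmer Il12rb1 probe.

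Il2rb, the signalling chain that IL-2 and IL-15 share, came closest to a difference. Its signal was 3.96, 4.56, 4.25 and 4.14 in the ChAT_positive pools, against 4.42, 4.77, 4.67 and 4.92 in the ChAT_negative pools. Only ChAT_positive replicate 2 reached into the range of the other group, above ChAT_negative replicate 1. The log2 difference was -0.47 (SE 0.17, 95% interval -0.86 to -0.079), which is 0.722 times the ChAT_negative level, with an unadjusted p of 0.0237 and an adjusted p of 0.157. The summed linear level of the 14 NK markers moved the same way, lying between 174.9 and 264.1 in ChAT_positive pools and between 265.2 and 325.6 in ChAT_negative pools, and its part in the Il2rb values was not tested.

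Il2rg, the common gamma chain, was the 1 receptor gene of 10 whose groups did not overlap, where 15.5% of all genes had such groups and 6.14% had them with the ChAT_positive pools lower. It measured 3.63, 3.85, 3.73 and 3.35 in ChAT_positive pools, against 3.93, 3.96, 3.86 and 3.88 in ChAT_negative pools. The ChAT_negative pools were tightly grouped (SD 0.043) and the ChAT_positive pools were not (SD 0.21). The difference was small, at -0.27 on the log2 scale (95% interval -0.58 to 0.043, adjusted p = 0.285). It shrank to -0.053 with median scaling, where the groups overlapped, as they also did with normexp background correction (-0.23).

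Neither alpha chain differed past the test. Il2ra, the high-affinity IL-2 chain that activated lymphocytes and regulatory T cells carry, measured 3.76, 4.27, 3.86 and 3.71 in ChAT_positive pools, against 3.81, 4.20, 3.81 and 3.93 in ChAT_negative pools. Both replicates numbered 2 were the highest of their group, and the ranges overlapped throughout. Regulatory T cell markers summed to 16.6 to 23.9 in ChAT_positive and 20.0 to 23.7 in ChAT_negative pools, with 0 of 5 genes free of overlap, where 15.5% of all genes were. The log2 difference of Il2ra was -0.038 (95% interval -0.42 to 0.34), a sign that turned with the scaling, to 0.18 with median scaling and 0.013 with quantile normalization. Il15ra was read by 2 probes against different transcript records. The brighter, for NM_133836, measured 4.98, 5.31, 4.86 and 4.92 in ChAT_positive pools, against 5.36, 5.38, 4.86 and 5.11 in ChAT_negative pools, a log2 difference of -0.16 (95% interval -0.54 to 0.22) that turned to 0.058 with median scaling. The dimmer, for NM_008358, measured 2.57, 2.99, 2.47 and 2.45 in ChAT_positive pools, against 2.63, 2.84, 2.30 and 2.21 in ChAT_negative pools, a log2 difference of 0.13 (95% interval -0.31 to 0.56). The probes of this gene thus differed in sign except with median scaling, and neither difference passed the test (adjusted p = 0.619 and 0.737).

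**Figure D2:**
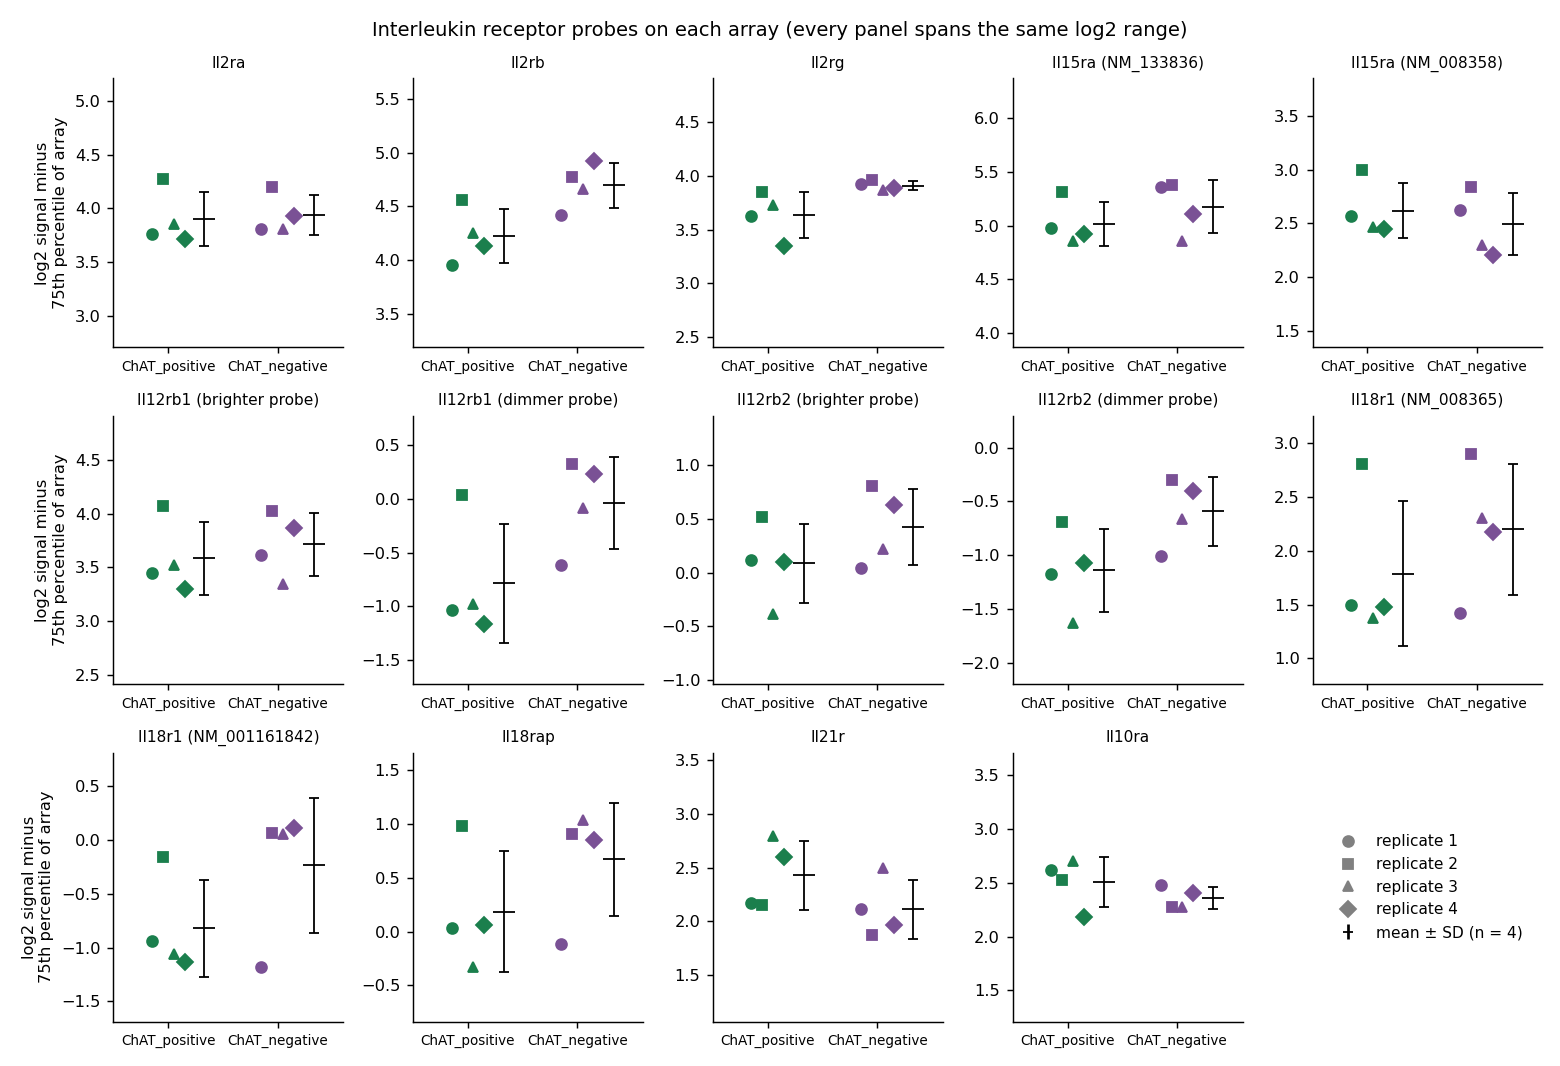
Log2 signal minus the array's 75th percentile for each interleukin receptor probe, with ChAT_positive pools on the left of each panel and ChAT_negative pools on the right. Marker shapes give the replicate number, bars give mean ± SD (n = 4), and every panel spans the same range. Il2rg is the 1 panel without overlap (with median scaling or normexp its groups overlap), and in the IL-12 and IL-18 receptor panels the square of ChAT_positive replicate 2 stands at the top of its group.

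Differences between probes read on the same array do not depend on a scaling constant, so 10 such differences were compared between groups; they were chosen after the values were seen. The difference of Il2rb minus Il2ra was 0.20, 0.29, 0.39 and 0.42 in ChAT_positive pools, against 0.61, 0.57, 0.86 and 0.99 in ChAT_negative pools. The groups did not overlap, nor did they with normexp background correction or with quantile normalization. Leaving out an array cannot create an overlap, so only the size was followed there, and it ranged from -0.49 to -0.35. The mean difference between groups was -0.43 on the log2 scale (exact permutation test, two-sided, p = 0.0286, the smallest that 4 against 4 allows; 0.0952 after adjustment over the 10 tests). As background, Il2rb minus another named gene was lower in ChAT_positive pools without overlap for 27.1% of genes, and another named gene minus Il2ra for 5.49%. Il2rb against Il2rg (-0.20) and Il2rb against Il15ra (-0.31) overlapped between the groups, with exact permutation p = 0.2 and 0.229.

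The 2 probes of Il15ra and of Il12rb2 also parted without overlap. The dimmer minus the brighter Il15ra probe averaged -2.40 ± 0.064 in ChAT_positive and -2.68 ± 0.17 in ChAT_negative pools (SD, n = 4 each). For Il12rb2 that difference averaged -1.23 ± 0.051 in ChAT_positive and -1.02 ± 0.092 in ChAT_negative pools. Both had an exact permutation p of 0.0286, adjusted to 0.0952, and such non-overlap was seen for 9.38% of the 3486 genes with 2 or more probes. With quantile normalization the groups overlapped for both genes, and with normexp also for Il12rb2. The probes disagreed in the size of the difference, and whether that reflects transcripts or probe response was not tested.

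**Figure D3:**
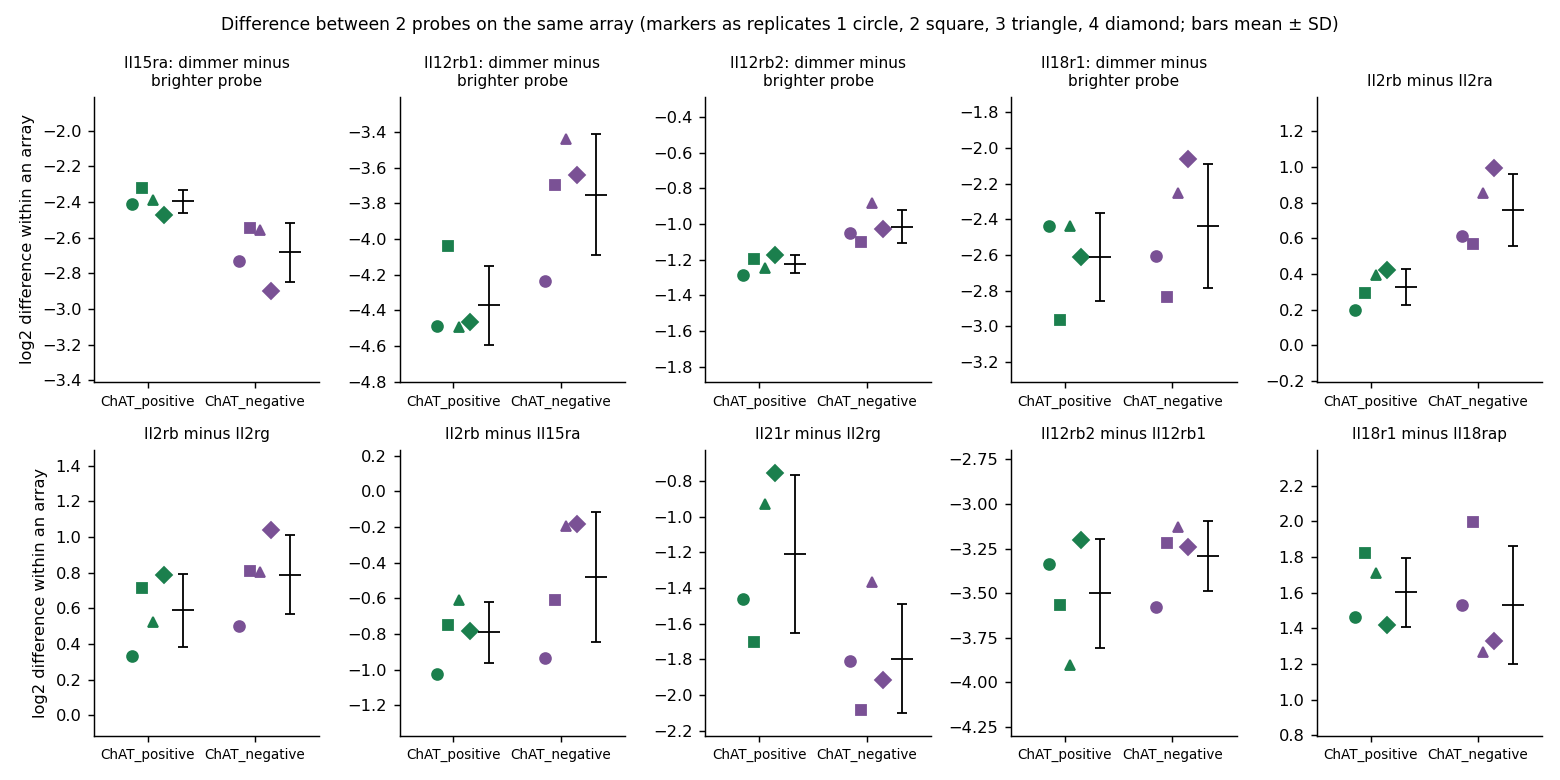
Difference on the log2 scale between 2 probes of the same array, for the probes of 1 gene and for pairs of receptor chains, with ChAT_positive pools on the left and ChAT_negative pools on the right of each panel. Bars give mean ± SD (n = 4). Il2rb minus Il2ra, and the paired probes of Il15ra and Il12rb2, show groups that do not overlap.

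The IL-12 receptor genes had lower means in ChAT_positive pools by every probe, except by the brighter Il12rb1 probe with median scaling, with differences that were larger for the dimmer probes. For Il12rb1, the chain that IL-12 and IL-23 share, the brighter probe measured 3.45, 4.08, 3.52 and 3.30 in ChAT_positive pools, against 3.62, 4.02, 3.35 and 3.87 in ChAT_negative pools. That is a log2 difference of -0.13 (95% interval -0.61 to 0.36, adjusted p = 0.766), which turned to 0.089 with median scaling. The dimmer probe for the same transcript record measured -1.04, 0.036, -0.98 and -1.16 in ChAT_positive pools, against -0.62, 0.32, -0.089 and 0.23 in ChAT_negative pools. Without ChAT_positive replicate 2 the groups of this probe would not have overlapped. Its log2 difference was -0.75 (SE 0.31, 95% interval -1.45 to -0.048), with an unadjusted p of 0.0388 and an adjusted p of 0.198.

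Il12rb2, the chain that confers IL-12 signalling through STAT4, gave the same picture. Its brighter probe measured 0.11, 0.51, -0.38 and 0.097 in ChAT_positive pools, against 0.040, 0.80, 0.22 and 0.63 in ChAT_negative pools. Its dimmer probe measured -1.17, -0.69, -1.63 and -1.08 in ChAT_positive pools, against -1.01, -0.30, -0.66 and -0.40 in ChAT_negative pools. By both probes ChAT_negative replicate 1 sat among the ChAT_positive values, and by the brighter one replicate 3 did too. The log2 differences were -0.34 (95% interval -0.87 to 0.20, adjusted p = 0.435) and -0.55 (95% interval -1.08 to -0.020, adjusted p = 0.208).

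Il18r1 spread more within each group than any other of the 10 receptor genes, with an SD of 0.68 among ChAT_positive pools by its brighter probe and 0.63 among ChAT_negative pools by its dimmer one. Il18r1, the ligand-binding chain, measured 1.50, 2.80, 1.38 and 1.48 in ChAT_positive pools, against 1.42, 2.90, 2.31 and 2.18 in ChAT_negative pools by its brighter probe. ChAT_positive replicate 2 read with ChAT_negative replicates 2 to 4, and ChAT_negative replicate 1 read with the other ChAT_positive pools. The log2 difference was -0.41 (SE 0.39, 95% interval -1.31 to 0.48, adjusted p = 0.577). A dimmer Il18r1 probe, for NM_001161842, measured -0.94, -0.16, -1.06 and -1.13 in ChAT_positive pools, against -1.18, 0.068, 0.057 and 0.11 in ChAT_negative pools, a log2 difference of -0.59 (adjusted p = 0.344). Il18rap, the accessory chain needed for signalling, measured 0.034, 0.98, -0.33 and 0.061 in ChAT_positive pools, against -0.11, 0.91, 1.04 and 0.85 in ChAT_negative pools, a log2 difference of -0.48 (SE 0.34, 95% interval -1.25 to 0.28, adjusted p = 0.432). The same 2 pools again read with the opposite group. Each interval reached past a 2-fold lower level, so a difference of that size is not excluded for these genes.

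The IL-12 and IL-18 receptor probes shared a pattern among the pools of each group. All 7 of them were highest in ChAT_positive replicate 2, which exceeded the mean of the other ChAT_positive pools by 0.57 to 1.35 on the log2 scale, and 6 of 7 were lowest in ChAT_negative replicate 1. In ChAT_negative pools 5 of 7 were highest in replicate 2, and the arrays numbered 2 had the same slide position, whose part was not tested. Over all probes the deviations of those arrays from their group means correlated at 0.68. Of the 7 probes of the other receptors, 5 were highest in ChAT_positive replicate 2 and 1 was lowest in ChAT_negative replicate 1. Over all 14 receptor probes, 12 were highest in ChAT_positive replicate 2, against 38.6% of all probes, and 7 were lowest in ChAT_negative replicate 1, against 20.3% of all probes. Both arrays numbered 2 were the highest of their group for 9 of the 14, against 19.9% of all probes. ChAT_positive replicate 2 exceeded the mean of the others by 1 or more for the dimmer Il12rb1 (1.09), brighter Il18r1 (1.35) and Il18rap (1.06) probes. No other receptor probe reached that excess, which was seen for 3.27% of all probes.

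Marker sums of other cell types moved in both directions with ChAT_positive replicate 2. The summed linear level of 12 T cell markers was 80.5 in that pool and 47.8 to 58.9 in the other ChAT_positive pools, against 63.2 to 83.8 in ChAT_negative pools, of which replicates 1 (63.2) and 3 (63.4) were low. Regulatory T (23.9), ILC2 (32.4) and monocyte (13.8) marker sums were also highest in ChAT_positive replicate 2 of its group and lowest in ChAT_negative replicate 1 of its group (20.0, 22.0 and 14.8), and the ILC3 and type 17 sum was 63.6 in ChAT_positive replicate 2 and 41.8 to 49.0 in the other ChAT_positive pools. The NK marker sum was 264.1 in ChAT_positive replicate 2 and 174.9 to 211.8 in the other ChAT_positive pools. ChAT_negative replicate 1, at 298.4, was not the lowest of its group by that sum. The neutrophil marker sum was lowest in ChAT_positive replicate 2, at 3.04, with 7.53 to 35.4 in the other ChAT_positive pools. Basophil and mast cell (0.891) and erythroid and platelet (17.1) sums were the lowest of the group there too. ChAT_negative replicate 2 was likewise lowest of its group in neutrophil (20.4), basophil and mast cell (9.11) and erythroid and platelet (26.2) sums. It was highest of its group in NK (325.6), T (83.8), regulatory T (23.7) and monocyte (18.2) sums, but not in B cell, ILC2 or ILC3 sums. The part of these cells in the receptor values was not tested.

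Leaving out those pools moved the receptor values but made no call. Without ChAT_positive replicate 2, 7 of 14 receptor probes were lower at an unadjusted p under 0.05, where 12.4% of all probes were, and the brighter Il18r1 probe differed by -0.75 (adjusted p = 0.218) and Il18rap by -0.75 (adjusted p = 0.193). Without ChAT_negative replicate 1, 5 of 14 were lower, where 9.82% of all probes were. Without any other 1 array, the count was 0 or 1 of 14. Both pools were singled out by these same receptor values, and leaving out a group's highest or lowest pool moves its mean by construction. The contrast with the shares over all probes is therefore no independent evidence of a difference. The lowest adjusted p of any receptor probe when 1 array was left out was 0.0717, for the dimmer Il12rb1 probe without ChAT_positive replicate 2.

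**Figure D4:**
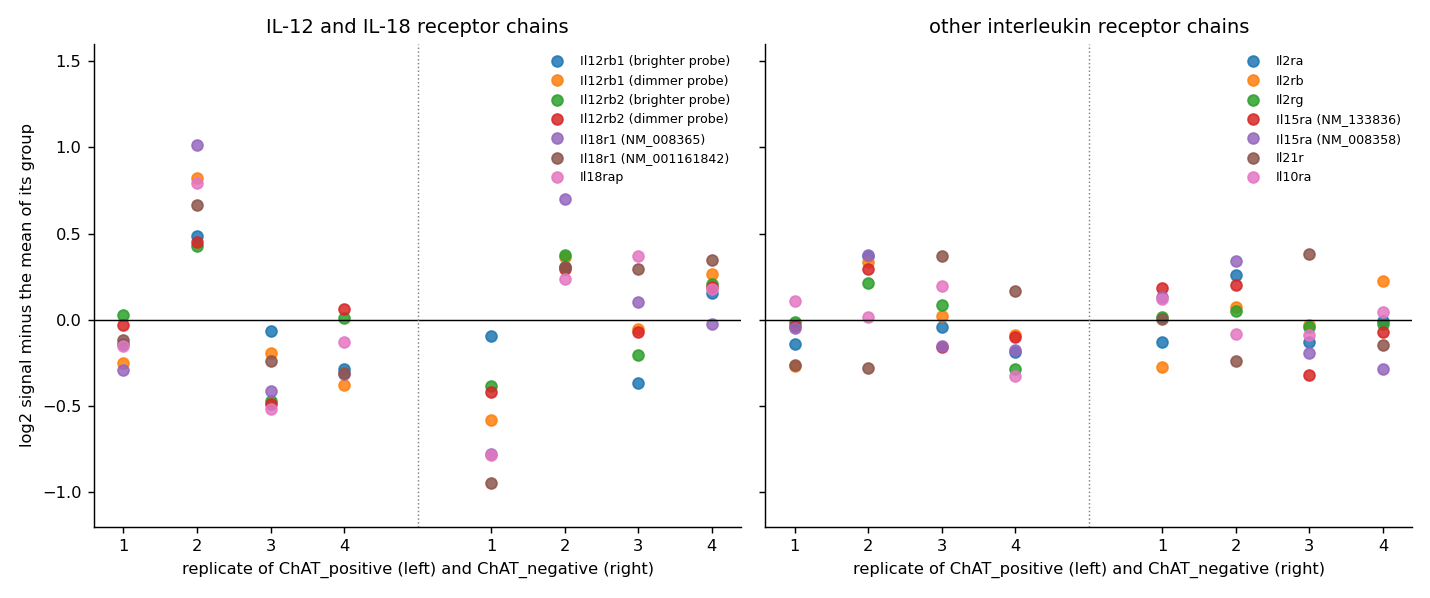
Log2 signal of each interleukin receptor probe minus the mean of its group, by replicate, with ChAT_positive replicates on the left and ChAT_negative replicates on the right of each panel. In the IL-12 and IL-18 receptor panel all 7 points of ChAT_positive replicate 2 lie above 0 and all 7 points of ChAT_negative replicate 1 lie below it. The other receptors vary less.

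Because Il12rb2 and Il18rap, which lie on different chromosomes, shared this pattern over the pools, the 250 bases before their RefSeq starts are shown, 5′ to 3′ on the strand of the gene (GRCm38.p6). Promoters were found for 7 of the 10 receptors. Each was searched on both strands for the STAT palindrome TTCNNNGAA, a T-box core TCACACC and a Runx core TGTGGT, which were present in 7.02%, 3.33% and 14.0% of all 32851 promoters of this length. Capitals mark a match. Il12rb2 lies at chr6:67376189-67376438 on the minus strand and Il18rap at chr1:40515112-40515361 on the plus strand.
Il12rb2: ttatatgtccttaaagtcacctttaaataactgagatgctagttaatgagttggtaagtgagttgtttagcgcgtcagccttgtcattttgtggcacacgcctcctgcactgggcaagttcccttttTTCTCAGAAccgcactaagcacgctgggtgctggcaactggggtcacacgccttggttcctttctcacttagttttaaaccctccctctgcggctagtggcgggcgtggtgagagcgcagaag
Il18rap: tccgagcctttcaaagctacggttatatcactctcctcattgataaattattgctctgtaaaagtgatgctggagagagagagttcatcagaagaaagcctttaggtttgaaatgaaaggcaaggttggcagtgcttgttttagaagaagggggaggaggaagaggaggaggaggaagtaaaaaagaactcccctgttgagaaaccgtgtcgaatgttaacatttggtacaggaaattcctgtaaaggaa
Il12rb2 held 1 STAT palindrome and Il18rap none of the motifs. Of the others, Il18r1 held 2 STAT palindromes before 1 of its 3 starts, Il21r and Il2rg held 1 Runx core each, and Il2ra and Il15ra held none. A match or its absence in these letters is no measure of binding.

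Il21r and Il10ra were the 2 genes of the 10 with the higher mean in ChAT_positive pools, joined by Il2ra, Il15ra and Il12rb1 with median scaling and by Il2ra with quantile normalization. Il21r measured 2.17, 2.15, 2.80 and 2.60 in ChAT_positive pools, against 2.12, 1.88, 2.50 and 1.96 in ChAT_negative pools, with both replicates numbered 3 the highest of their group. The log2 difference of Il21r, a receptor whose ligand comes mainly from CD4+ T cells, was 0.31 (SE 0.20, 95% interval -0.15 to 0.78, adjusted p = 0.399). B cells also carry Il21r, and the summed level of 12 B cell markers was 119.3 to 152.3 in ChAT_positive and 79.8 to 104.7 in ChAT_negative pools. Of the 12, 7 had groups without overlap, where 15.5% of all genes did. The part of B cells in the Il21r values was not tested. Il10ra measured 2.62, 2.52, 2.71 and 2.18 in ChAT_positive pools, against 2.48, 2.28, 2.27 and 2.41 in ChAT_negative pools. ChAT_positive replicate 4 was below every ChAT_negative pool and the other 3 were above them all, for a log2 difference of 0.15 (95% interval -0.19 to 0.48, adjusted p = 0.596).

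The genes closest in pattern to the receptors were found by the root mean square difference of mean-centred log2 signals over the 8 arrays, among 13001 named genes. Closest to Il2rb, the receptor with the smallest p, were Hgsnat (0.070) and Pdcd1lg2 (0.075), where the median gene was at 0.40. Closest to Il15ra, whose probe was the brightest, were Synpo2l (0.043), Capza1 (0.053) and H4c9 (0.054), where the median gene was at 0.33. The closest of so many genes lie far below the median gene by their selection alone, so this contrast is no measure of likeness. Hgsnat encodes a lysosomal acetyltransferase, Pdcd1lg2 a ligand of the inhibitory receptor PD-1, and Capza1 a subunit of the actin capping protein.

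Other genes of the pathway were counted by lists of their roles. Of the ligands, Il15, Il12a, Il18 and Il10 could be tested and 0 passed in either direction, with 1 higher at an unadjusted p under 0.05. Il2 and Il21 were well above background on too few arrays to test, and Il12b was not matched. Il15 averaged 0.12 ± 0.23 in ChAT_positive and 0.25 ± 0.48 in ChAT_negative pools, and Il10 averaged -0.73 ± 0.41 in ChAT_positive and -1.25 ± 0.62 in ChAT_negative pools (SD, n = 4 each). Il12a, which encodes the p35 chain of IL-12 and was singled out after its values were seen, averaged -1.08 ± 0.36 in ChAT_positive and -2.26 ± 0.54 in ChAT_negative pools without overlap, a log2 difference of 1.18 (SE 0.29) with an adjusted p of 0.0633.

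Of 12 partner and related cytokine receptor chains, 1 rose and 0 fell, where 1.53% of all genes rose and 1.82% fell, and the median log2 difference was 0.062. The gene was Ifngr2, the signalling chain of the interferon-gamma receptor, at 0.69, 0.27, 0.96 and 0.88 in ChAT_positive pools, against -0.11, -0.56, -0.48 and -0.32 in ChAT_negative pools. The groups did not overlap, and its log2 difference was 1.07 (SE 0.18, adjusted p = 0.0272). The call of Ifngr2 was lost when 1 array was left out in 6 of 8 cases, with adjusted p = 0.0714, 0.0748 and 0.0616 without ChAT_positive replicate 1, 3 or 4 and 0.0613, 0.0591 and 0.0813 without ChAT_negative replicate 2, 3 or 4. Without ChAT_positive replicate 1, Il23r, a chain of the IL-23 receptor, was called instead, at a log2 difference of 1.83 (adjusted p = 0.0462), against 1.39 over all pools (adjusted p = 0.12). It was named after its values were seen, and it was called with the replicate block too (adjusted p = 0.0436).

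A list of further genes of the IL-1 receptor family, to which the IL-18 receptor belongs, and the IL-18 binding protein had 6 tested genes. Of these, 1 rose and 0 fell, where 1.53% of all genes rose and 1.82% fell, and the median log2 difference was 0.38. The gene was Il1r1, the signalling receptor for IL-1, at -2.97, -2.63, -2.80 and -2.03 in ChAT_positive pools, against -4.04, -4.16, -3.91 and -4.16 in ChAT_negative pools, a log2 difference of 1.46 (SE 0.21, adjusted p = 0.0148). All ChAT_positive pools lay above all ChAT_negative ones, and the call was lost without ChAT_negative replicate 4 (adjusted p = 0.0538). Il1r1 also stands among 8 markers of ILC3 and type 17 lymphocytes, whose summed level was 41.8 to 63.6 in ChAT_positive and 20.6 to 28.5 in ChAT_negative pools. Of the 8, 7 had groups without overlap, Il1r1 itself among them, where 15.5% of all genes did. The part of such cells was not tested.

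No gene of the lists downstream of the receptors passed. Of 11 JAK and STAT genes, 16 genes of MyD88 to NF-kappaB signalling and 8 feedback regulators, 0 rose and 0 fell, with median log2 differences of 0.045, 0.051 and 0.056. At an unadjusted p under 0.05, 3, 1 and 0 of them were higher and 0 were lower, where 11.9% of all genes were higher and 11.1% lower. Stat3, a transcription factor that IL-10 and IL-21 activate, averaged 4.07 ± 0.13 in ChAT_positive and 4.02 ± 0.22 in ChAT_negative pools, and the kinase Jak1 averaged 3.52 ± 0.12 in ChAT_positive and 3.65 ± 0.10 in ChAT_negative pools. Irak2 and Nfkbia differed by 0.055 and -0.092 on the log2 scale, and Ptpn6 and Socs2, which damp receptor signalling, by 0.23 and 0.024. Irak3, which restrains signalling through MyD88 and was named after its values were seen, averaged 0.76 ± 0.38 in ChAT_positive and -0.27 ± 0.39 in ChAT_negative pools without overlap, a log2 difference of 1.02 (adjusted p = 0.0617).

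Of 16 genes that these cytokines are known to induce in NK cells, 0 rose and 0 fell, with a median log2 difference of -0.25. At an unadjusted p under 0.05, 5 of the 16 were lower and 1 was higher, where 11.1% of all genes were lower and 11.9% higher. Ifng, the interferon-gamma gene, averaged 5.68 ± 0.27 in ChAT_positive and 5.88 ± 0.22 in ChAT_negative pools, and Gzma, a granzyme of cytotoxic granules, averaged 5.31 ± 0.27 in ChAT_positive and 5.60 ± 0.19 in ChAT_negative pools (SD, n = 4 each). Prf1, which encodes perforin and was named after its values were seen, averaged 4.51 ± 0.24 in ChAT_positive and 5.13 ± 0.16 in ChAT_negative pools, a log2 difference of -0.62 (adjusted p = 0.0706). Gzma and Prf1 stand among the NK markers as well, whose summed level was given above beside Il2rb.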

How the data were processed

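The deposited scanner files give spot intensity on a linear scale, background-subtracted within each array by Agilent Feature Extraction 11.5.1.1, per the file headers. The authors' deposited table gives log2 values of 31942 probes, each column following log2 of the processed intensity less a constant within 0.0065 of that array's 75th percentile, with column medians of -0.72 to -0.63. Controls were dropped, as were 1344 spot values flagged as outliers, 51 values of probes with all spots flagged were kept, spots of a probe were averaged, and 26762 of 55681 probes were named through unversioned RefSeq accessions. Probes passing the scanner's flag for signal well above background on 4 or more of the 8 arrays (32086) entered 1 fit, made by limma (version 3.58.1, R version 4.3.3) as lmFit followed by eBayes. Tests were two-sided without a block, p-values were adjusted by Benjamini-Hochberg over those probes, a call needed an adjusted p under 0.05, and a gene stood by its brightest probe. The number of arrays limits the precision.

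The members and lists were chosen with earlier results of these data known. Text genes are all members, Chat and Klrb1c, the called genes of each pathway list or its 2 brightest, and the 3 genes most alike to Il2rb and to Il15ra; a few genes that these rules take are not reported here. Of the marker lists, levels are given in place of calls. The fit was tested on simulated data in which 200 of 32086 probes were changed between these groups: 45% of 2-fold and 86% of 4-fold changes were found and 3.68% of calls were false. Its noise was drawn independently for each probe and array, without slide effects or deviations shared by same-numbered arrays. These rates therefore need not hold for the calls made here. Alternatives changed scaling, background correction, filter, probe choice, variance model, weights, block, threshold and arrays. Normexp correction took median spot signals. Sequences are RefSeq's, from GRCm38.p6.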

Additional observations from a re-analysis of the deposited data

Results flagged for a closer look

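In 4 of 28 groups of receptor probe values, 1 pool stood apart from the other 3 by more than Dixon's 95% limit. Chance flags about 1 in 20 independent groups, but these were probes read on the same 8 arrays, so the shares are not comparable. ChAT_positive replicate 2 was high for the dimmer Il12rb1 probe, at 0.036 with the others at -1.16 to -0.98, and for the brighter Il18r1 probe, at 2.80 with the others at 1.38 to 1.50. ChAT_negative replicate 1 was low for the Il18r1 probe for NM_001161842, at -1.18 with the others at 0.057 to 0.11, and for Il18rap, at -0.11 with the others at 0.85 to 1.04. Among the other genes chosen for the text by rule, 1 of 64 groups was set apart, that of Gzma, which was low in ChAT_negative replicate 3, at 5.32 with the others at 5.67 to 5.73.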

How the results depend on the processing

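No receptor gene or probe was called under any alternative. Over the 15 alternatives that can move a fold change, 7 of 210 values of the 14 receptor probes turned sign, 3 of them with median scaling. The lowest adjusted p was 0.0583, for the dimmer Il12rb1 probe with the replicate block. The log2 difference of Il2ra turned to 0.18 with median scaling, 0.013 with quantile normalization, and with 1 array left out (-0.16 to 0.050), where 0.0086 was the value without ChAT_positive replicate 1, 0.025 that without replicate 4 and 0.050 that without ChAT_negative replicate 2. With median scaling it also turned for the brighter probes of Il15ra (0.058) and Il12rb1 (0.089). For Il2rb it was -0.58 to -0.25, with an adjusted p of 0.078 (replicate block) to 0.535 (median scaling). The cause of these changes was not tested.

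Counts over all probes moved far more. Against 468 higher and 525 lower, 764 were higher with quantile normalization and 190 lower with median scaling. The counts were 86 higher and 115 lower when dim probes were not filtered, 203 and 257 with a filter of at least 1 array, 772 and 909 with array weights, 1302 and 1518 at an adjusted p under 0.1, 178 and 321 at 2-fold or more, and 79 to 232 and 102 to 411 with 1 array left out. Chosen after seeing the data, leaving out both arrays numbered 2 gave 79 and 152, and both numbered 3 gave 14 and 26, where fewer arrays leave less power.

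Same-numbered arrays shared a slide position and only a number in the labels, and their deviations correlated at 0.48, 0.68, 0.56 and 0.089, so they were not taken as pairs; both arrays numbered 4 correlated best with the other group's number 3. The replicate block called 1401 probes higher and 2427 lower, and in the lists 2 partner receptor chains (Ifngr2 and Il23r), 2 JAK and STAT genes, and 1 gene each of the ligand and MyD88 lists higher, and 3 induced genes lower.

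Against 0 in the main setting, 1 gene was called among the ligands (Il12a) with normexp, with the filter of all 8 arrays, with 1 probe per gene, with probes averaged, with trended variance, with array weights, at 0.1 and without ChAT_negative replicate 1. In the JAK and STAT list 1 was called with quantile normalization, the 8-array filter, 1 probe per gene, probes averaged, array weights and at 0.1. In the MyD88 list 1 was called with normexp, the 8-array filter, 1 probe per gene, probes averaged, trended variance and at 0.1, and among induced genes 1 was called higher with quantile normalization, while 1 was called lower with 1 probe per gene, probes averaged, trended variance, array weights, at 0.1 and without ChAT_positive replicate 2. The partner chains went to 0 with no filter on dim probes (Ifngr2 adjusted p = 0.0831) and without both arrays numbered 3, and ranged from 0 to 1 with 1 array left out. The list of IL-1 receptor family genes and the IL-18 binding protein went to 0 without both arrays numbered 2 or both numbered 3. The limma adjusted p of Il1r1 was then 0.0619 and 0.092, respectively. With 1 array left out, the list ranged from 0 to 1.

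Small differences of uncalled genes turned sign. With median scaling these were Il15 (0.085), Jak1 (0.083), Nfkbia (0.12) and Ifng (0.018), with array weights Il15 (0.072) and Stat3 (-0.032), with quantile normalization Nfkbia (0.036), with normexp Irak2 (-0.12), and with probes averaged Irak2 (-0.22) and Socs2 (-0.16). With 1 array left out, Stat3 ranged from -0.0095 to 0.14, with -0.0084 also below 0, Irak2 from -0.060 to 0.16, with -0.0097 also below 0, Nfkbia turned to 0.010 and 0.0054, and Socs2 to between -0.14 and -0.012, with -0.085 and -0.11 among them. Without both arrays numbered 3, Stat3 was -0.049, Irak2 -0.072 and Socs2 -0.0018, and without both numbered 2, Stat3 was -0.017. The within-array difference of Il18r1 minus Il18rap was 0.071 and turned to -0.14 with normexp, and with 1 array left out it ranged from -0.016 to 0.23, being -0.0019 without ChAT_positive replicate 2 and -0.016 without ChAT_negative replicate 3.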
